A study of Mus musculus with 12 samples.

Results

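Gas1, Rbl2, Sesn1 and Plk2 are 4 genes tied to growth arrest or to the control of cell cycle entry, followed here through 24 h of BMP6 in a mouse endothelial line. They were named as a set from results of these same arrays, and were found by symbol among the 8267 genes that carry a name here. Each of the 4 rests on a single probe, so no second probe of the gene could be set beside it. The cells were MECs, a line of mouse intraembryonic endothelial cells. Of the 12 arrays, 3 held mock-treated control cells, to which the labels give no time, and 3 each held cells given BMP6, a bone morphogenetic protein, for 4, 12 or 24 h. The labels give no dose of BMP6, and describe the 3 arrays of a group as independent biological replicates.

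Values are log ratios of cell RNA (Cy5) to a universal mouse reference RNA (Cy3), normalized by the authors. They are read here as log2, with a positive value meaning more RNA in the cells, as the labelled dyes would have it. The sources used here state neither the log base nor the direction of the ratio. If the ratio ran the other way each direction below would turn, and with natural logarithms each fold would be larger (1.96 in place of 1.59 for Rbl2 at 4 h). The gene names rest on an order of the array positions recovered from the data: under it the first and second probes of a gene correlated across 1831 genes with Pearson r = 0.47, against 0.02 in the deposited order, and genes are not independent replicates. In bulk RNA, fewer cells that express a gene and less RNA per cell cannot be told apart.

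Growth arrest is an exit from division, and quiescence is its reversible form. Gas1 was found as a gene switched on in arrested fibroblasts, and encodes a protein held in the membrane by a lipid anchor that also serves as a co-receptor for hedgehog ligands. Rbl2 encodes p130, the retinoblastoma relative that, with E2F4 and the other subunits of the DREAM complex, keeps cell cycle genes silent in resting cells. Sesn1 encodes a sestrin, a protein under the control of p53 and FoxO factors that binds the GATOR2 complex and restrains the growth kinase mTORC1. Plk2, first described as the serum-inducible kinase Snk, is a polo-like kinase of the centriole cycle that quiescent cells switch on soon after growth factors are added.

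The sequences just before the transcription starts of the 4 genes are shown because Rbl2 and Sesn1 followed nearly the same time course while Plk2 ran the other way. They are RefSeq sequences of build GRCm38.p6, 250 bases ending 1 base before the annotated start, 5′ to 3′ on the gene's strand, and all 4 genes had an entry, Sesn1 with 2 starts. Capitals mark matches, on either strand, to any of 6 motifs searched: the E2F site TTTCCCGC, the cell cycle homology region TTTGAA, the FoxO site GTAAACA, the cyclic AMP response element TGACGTCA, the GC box GGCGCC bound by BMP Smads, and the p53 half-site. The motifs were chosen after the values were seen.
Gas1, chr13:60177536-60177785, - strand: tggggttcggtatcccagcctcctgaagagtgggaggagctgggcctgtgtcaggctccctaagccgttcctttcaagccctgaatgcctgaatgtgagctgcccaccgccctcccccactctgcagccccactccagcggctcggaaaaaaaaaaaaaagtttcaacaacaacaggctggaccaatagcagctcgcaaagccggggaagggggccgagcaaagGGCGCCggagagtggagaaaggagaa
Rbl2, chr8:91069807-91070056, + strand: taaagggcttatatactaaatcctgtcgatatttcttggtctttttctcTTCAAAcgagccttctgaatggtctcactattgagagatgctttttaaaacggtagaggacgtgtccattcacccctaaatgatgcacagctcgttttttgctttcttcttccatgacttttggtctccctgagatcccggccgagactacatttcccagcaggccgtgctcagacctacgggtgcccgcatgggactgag
Sesn1, upstream start, chr10:41810324-41810573, + strand: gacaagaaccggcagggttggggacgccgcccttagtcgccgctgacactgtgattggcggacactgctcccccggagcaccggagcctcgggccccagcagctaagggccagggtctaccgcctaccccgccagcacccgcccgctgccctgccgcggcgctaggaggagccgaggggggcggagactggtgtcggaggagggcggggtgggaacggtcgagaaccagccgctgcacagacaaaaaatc
Sesn1, downstream start, chr10:41887189-41887438, + strand: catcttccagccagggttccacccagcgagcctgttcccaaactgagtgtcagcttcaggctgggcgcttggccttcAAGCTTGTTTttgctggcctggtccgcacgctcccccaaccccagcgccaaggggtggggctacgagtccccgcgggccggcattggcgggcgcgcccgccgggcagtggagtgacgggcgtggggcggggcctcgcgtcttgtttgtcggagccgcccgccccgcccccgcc
Plk2, chr13:110394794-110395043, + strand: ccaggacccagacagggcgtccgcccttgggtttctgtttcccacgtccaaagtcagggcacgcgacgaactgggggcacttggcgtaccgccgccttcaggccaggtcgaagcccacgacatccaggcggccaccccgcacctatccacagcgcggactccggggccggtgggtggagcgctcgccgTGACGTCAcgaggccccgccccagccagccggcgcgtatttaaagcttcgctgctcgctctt

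The Plk2 window held 1 cyclic AMP response element, at 62 to 55 bases before the start, a motif that 1.55% of all 32851 windows of this length hold. The Gas1 window held 1 GC box at 26 to 21 bases before the start (9.59% of all windows), and the Rbl2 window held the cell cycle homology region in reverse at 201 to 196 bases (16.0%). The downstream Sesn1 start had 1 p53 half-site at 173 to 164 bases (7.13%), and the upstream one had no match. None of the 5 windows held the E2F site (0.895% of all windows) or the FoxO site (3.17%). No matched motif was shared by 2 of the 5 windows, and a match is a run of letters, not a measured binding site. The capitals did not overlap one another. The windows of Sesn1 and Plk2 were rich in G and C, at 70.0%, 71.2% and 68.4%, against 46.8% for Rbl2 and 58.8% for Gas1.

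After 4 h of BMP6, Rbl2, Sesn1 and Gas1 lay lower than in control cells and Plk2 lay higher, each in 3 of 3 pairs of arrays with the same replicate number. Over all genes, 20.2% were lower and 14.7% higher in 3 of 3 pairs at 4 h. By 24 h Rbl2, Sesn1 and Plk2 had moved back towards control, while Gas1 had not. These differences are what the 4 genes were chosen on, so they are given as a description, with standard errors and no p-value. A pair of standard errors is given because the replicate numbers are taken to pair the arrays: one from the fit without pairing and one from the fit with the replicate number as a block, called paired below.

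**Figure D1:**
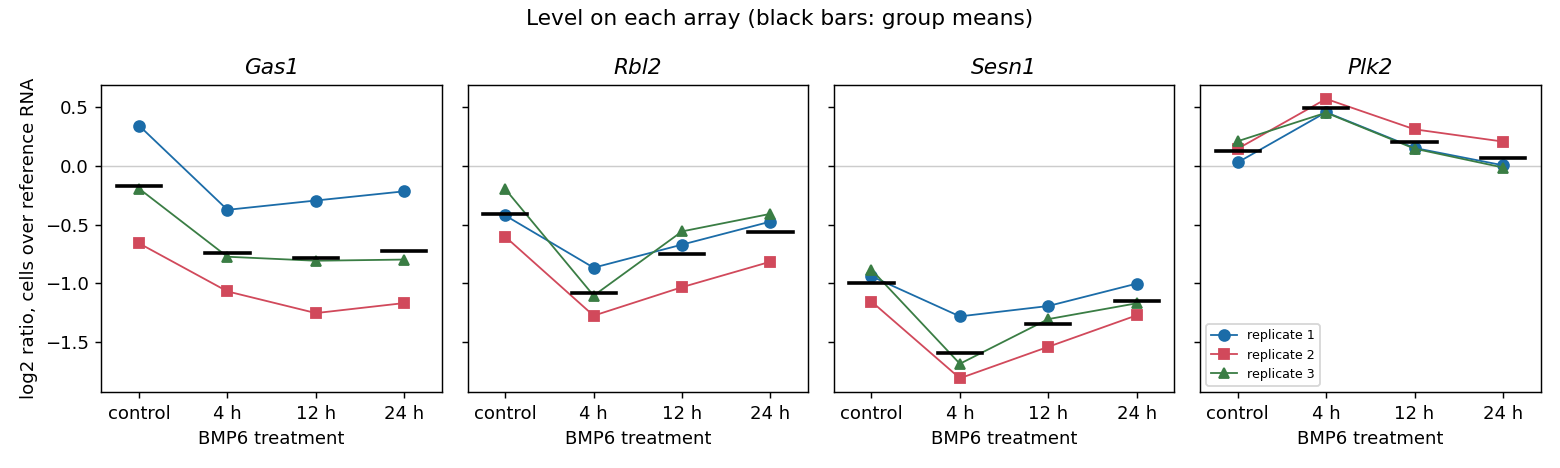
Log2 ratio of cell RNA to reference RNA (vertical axis) on each of the 12 arrays for the 4 genes, by treatment; lines join arrays of the same replicate number and black bars are group means of 3 arrays. Rbl2 and Sesn1 dip at 4 h and climb back, Plk2 peaks at 4 h, and the mean of Gas1 goes from -0.17 to -0.74 and stays near there, with replicate 1 highest and replicate 2 lowest in every group.

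Rbl2, the p130 pocket protein, had a log2 level of -0.42, -0.60 and -0.20 on control arrays 1, 2 and 3. At 4 h the 3 levels were -0.87, -1.27 and -1.10. All 3 arrays at 4 h lay below all 3 controls, which was so for 6.33% of the 8267 genes. At 12 h the Rbl2 levels were -0.67, -1.03 and -0.56, and at 24 h -0.48, -0.82 and -0.41, in both cases overlapping the controls. The mean level went from -0.41 ± 0.20 in controls to -1.08 ± 0.20 at 4 h, -0.75 ± 0.25 at 12 h and -0.57 ± 0.22 at 24 h (SD, n = 3). The log2 change was -0.67 at 4 h, 1.59-fold lower, with an SE of 0.16, or 0.077 paired. It was -0.34 at 12 h and -0.16 at 24 h, and within pairs it shrank from 4 to 12 h and again from 12 to 24 h in 3 of 3 pairs, steps upward that 24.9% and 19.7% of genes also took in all pairs. Among the 8267 genes the change of Rbl2 ranked 12 from the lowest at 4 h, 94 at 12 h and 444 at 24 h.

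Sesn1, the sestrin, started from log2 levels of -0.94, -1.15 and -0.88 in the controls. At 4 h it stood at -1.28, -1.80 and -1.68, and at 12 h at -1.19, -1.54 and -1.30. The arrays at both times lay below all 3 controls, which was so for 4.14% of genes at 12 h. At 24 h the levels were -1.001, -1.27 and -1.17 and overlapped the controls, at a time when 2.47% of genes lay wholly below theirs. Group means were -0.99 ± 0.14 in controls, -1.59 ± 0.27 at 4 h, -1.34 ± 0.18 at 12 h and -1.15 ± 0.14 at 24 h (SD, n = 3). The log2 change of -0.60 at 4 h, 1.51-fold lower (SE 0.14, or 0.074 paired), became -0.35 at 12 h and -0.15 at 24 h. The 4 h value differed among pairs, at -0.34, -0.65 and -0.80 in pairs 1, 2 and 3, and pair 1 was also the smallest for Rbl2, at -0.44 against -0.67 and -0.90.

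Plk2, the serum-inducible polo-like kinase, was the member that lay higher. Its log2 level was 0.03, 0.14 and 0.21 in controls and 0.45, 0.57 and 0.45 at 4 h. The 4 h arrays all lay above the controls, as did those of 3.81% of genes. At 12 h the levels were 0.15, 0.31 and 0.14, and at 24 h 0.00, 0.20 and -0.02, so that the groups again overlapped the controls, while 3.13% of genes at 12 h and 2.01% at 24 h lay wholly above theirs. Means were 0.13 ± 0.091 in controls, 0.49 ± 0.066 at 4 h, 0.20 ± 0.093 at 12 h and 0.06 ± 0.12 at 24 h (SD, n = 3). The log2 change was 0.36 at 4 h, or 1.29-fold (SE 0.082, or 0.057 paired), then 0.08 at 12 h and -0.06 at 24 h. From 4 to 12 h the log2 change of Plk2 was -0.30, -0.26 and -0.31 in the 3 pairs (19.1% of genes were lower in all pairs), and the 12 h arrays all lay below those at 4 h, as for 5% of genes. At 4 h its change ranked 108 from the highest of 8267 genes, a smaller departure than those of the 3 genes that lay lower.

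Gas1, the membrane protein of arrested cells, behaved differently over time. Its log2 level was 0.34, -0.66 and -0.20 on control arrays 1, 2 and 3. It was -0.38, -1.07 and -0.77 at 4 h, -0.30, -1.25 and -0.81 at 12 h, and -0.22, -1.17 and -0.80 at 24 h. At each time the treated arrays overlapped the controls, since replicate 1 lay highest and replicate 2 lowest in all 4 groups. Within pairs the differences from control were -0.72, -0.41 and -0.58 at 4 h (SD 0.15). They lay closer together later, at -0.64, -0.59 and -0.61 at 12 h (SD 0.022) and -0.56, -0.51 and -0.60 at 24 h (SD 0.048). All 3 pairs were lower at each of the 3 times, as they were for 20.2%, 17.5% and 14.6% of genes at 4, 12 and 24 h. Group means were -0.17 ± 0.50 in controls, -0.74 ± 0.35 at 4 h, -0.78 ± 0.48 at 12 h and -0.73 ± 0.48 at 24 h (SD, n = 3). The log2 changes of -0.57, -0.61 and -0.56 (1.48-, 1.53- and 1.47-fold lower) had an SE of 0.32 without pairing and of 0.06 paired. Gas1 ranked 28 from the lowest log2 change at 4 h, 17 at 12 h and 8 at 24 h.

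**Figure D2:**
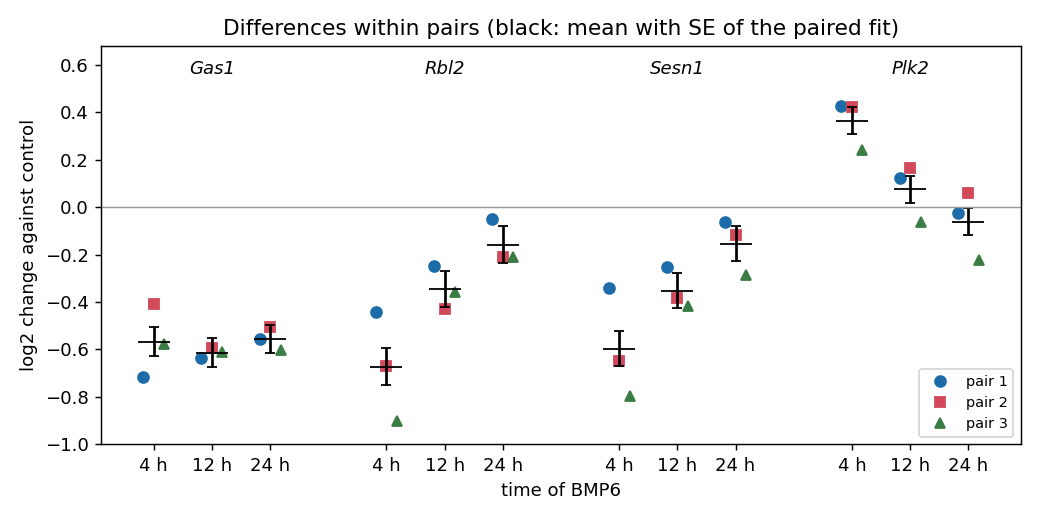
Log2 change against control (vertical axis) within each of the 3 pairs at 4, 12 and 24 h for the 4 genes; black bars are means with the SE of the paired fit. Gas1 stays between -0.41 and -0.72 in every pair at every time, while the means of Rbl2 and Sesn1 go from -0.67 and -0.60 at 4 h to -0.16 and -0.15 at 24 h.

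The way back can be read from the change between 4 and 24 h. Rbl2 was higher at 24 h than at 4 h by 0.51 and Sesn1 by 0.44 on the log2 scale (paired SE 0.077 and 0.074), and Plk2 was lower, with a change of -0.43 (0.057). The 24 h arrays of Rbl2 and Sesn1 all lay above those at 4 h, as for 5.42% of genes, and those of Plk2 all lay below, as for 6.62%. For Gas1 the change from 4 to 24 h was 0.01 (paired SE 0.06), made of 0.16, -0.10 and -0.02 in the 3 pairs. Whether Gas1 differed from the other 3 in this respect was not tested, because the genes were picked on these time courses.

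Without pairing, limma called 0 of the 4 genes at an adjusted p below 0.05 at any of the 3 times, where it called 0.169% of all genes at 4 h (14 genes), and 0 at 12 and at 24 h. At an unadjusted p below 0.05 there were 614, 393 and 166 genes. The F test over the 3 comparisons called 0.0484% of genes unpaired and 4.98% paired. In the paired fit all 4 passed at 4 h, 3 lower and 1 higher, where 6.02% of genes passed (3.75% lower and 2.27% higher). At 12 h Gas1 and Sesn1 passed, both lower, against 1.89% of genes (1.42% lower), and at 24 h Gas1 alone, against 0.169% (0.0968% lower). Between 4 and 12 h Plk2 passed, beside 1.29% of genes, and between 4 and 24 h Rbl2, Sesn1 and Plk2, beside 4.05%. Since the members were named from these contrasts, nothing is read from these counts. With 1 array left out at a time in the paired fit, the 4 h calls of all 4 genes and the 12 h call of Gas1 remained in 12 of 12 fits. The 24 h call of Gas1 was lost when control array 1 or 24 h array 2 or 3 was dropped. The 12 h call of Sesn1 held in 3 of 12 fits, in which control array 1 or 4 h array 1 or 3 was dropped, and in the same 3 fits Rbl2 passed at 12 h as well. Over the 12 fits the 12 h log2 change of Rbl2 ran from -0.42 to -0.30, and that of Sesn1 from -0.43 to -0.29. These fits reuse the arrays on which the genes were chosen, which favours calls that remain. They show only how far a call hung on a single array and are no support for the changes.

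**Figure D3:**
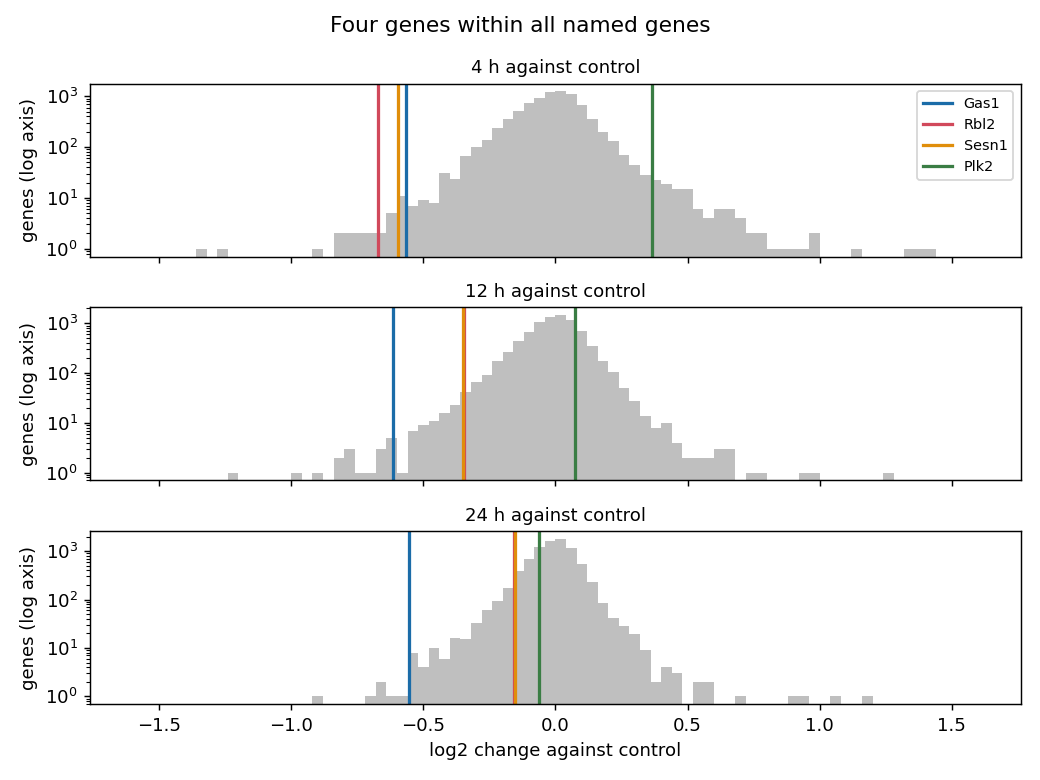
Number of genes (vertical axis, log scale) by log2 change against control at 4, 12 and 24 h for the 8267 named genes; coloured lines mark the 4 genes. At 12 and 24 h the lines of Rbl2 and Sesn1 coincide (-0.34 and -0.35, then -0.16 and -0.15), Plk2 lies near 0 and Gas1 is still in the lower tail.

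Part of the spread came with the replicate number and not with the treatment group, to a degree that differed among the 4. Of the sum of squares over the 12 arrays, the replicate number held 67.2% for Gas1, 27.9% for Rbl2, 25.8% for Sesn1 and 11.9% for Plk2, against a median of 51.2% over all genes. The treatment group held 31.4%, 66.3%, 67.3% and 81.5% in the same order, against a median of 18.9%. Gas1 was left with 1.30% that neither term held, where the median gene was left with 22.7%. Because the 4 genes were chosen on differences between these groups, a large group share and a small remainder were favoured by the choice. Nothing is therefore read from how they compare with the medians. The mean level of Gas1 over the 4 arrays of a replicate number was -0.14, -1.04 and -0.64 for numbers 1, 2 and 3. What arrays of one number share is not given in the sources used here.

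Likeness of pattern was measured as the Pearson correlation over the 12 arrays after the mean of each replicate number was removed, a description in which all values share the same control arrays. Rbl2 and Sesn1 had r = 0.98, and 6 of the other named genes, Sesn1 included, were at least that close to Rbl2. Plk2 had r = -0.83 with Rbl2 and -0.77 with Sesn1. Gas1 was less close, with r = 0.62 to Rbl2, 0.64 to Sesn1 and -0.31 to Plk2. The members were chosen on these same time courses, which favours strong correlations of either sign among them.

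The 3 genes closest to Rbl2 were Acadm (r = 0.99), the medium-chain acyl-CoA dehydrogenase of fatty acid oxidation, Marcks (0.99), a substrate of protein kinase C, and Gtf2i (0.98), a transcription factor. Acadm had log2 changes of -0.59, -0.31 and -0.14 at 4, 12 and 24 h. The closest to Sesn1 were the myelin and growth arrest gene Pmp22 (0.98), also known as Gas3, then Rbl2 and the phosphatase Ptpra (0.98). Pmp22 had log2 changes of -0.69, -0.37 and -0.19. Closest to Gas1 were Sulf1 (0.95), a heparan sulfate sulfatase, the semaphorin Sema3c (0.95) and Spg11 (0.93). Sema3c went to -0.62, -0.64 and -0.54, and Sulf1 to -0.35, -0.34 and -0.35, at the 3 times. Closest to Plk2 were Phlda1 (0.98), Slc20a1 (0.97), a phosphate transporter, and Gmppb (0.96), an enzyme of GDP-mannose synthesis. Phlda1 stood at 0.51, 0.09 and -0.13 and Slc20a1 at 0.60, 0.22 and -0.07.

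Relatives of the members that were measured include other retinoblastoma, sestrin and polo-like genes. They were not used to choose the members, but were added after their values were seen, so their likeness to the members is only a description. Of 7 described here 1 passed, Sesn3 at 4 h in the paired fit, where 6.02% of all genes passed, so the count says little about relatives as such. Of the retinoblastoma family, Rb1 had log2 changes of -0.19, -0.23 and -0.24 at 4, 12 and 24 h (paired SE 0.06, paired adjusted p 0.0914, 0.0935 and 0.277). Rb1 was lower in 3 of 3 pairs each time, as were 20.2%, 17.5% and 14.6% of genes. Rbl1, which encodes p107, stood at 0.01, 0.12 and 0.08 (paired adjusted p 0.957, 0.554 and 0.883). Of the sestrins, Sesn3 fell by 0.28 on the log2 scale at 4 h in the paired fit (paired SE 0.05, adjusted p 0.01), from -0.65, -0.43 and -0.32 in controls to -0.84, -0.80 and -0.61. Its change was -0.23 at 12 h (paired adjusted p 0.0512, passing once control array 1 was dropped) and -0.05 at 24 h (0.884). The 4 h call of Sesn3 was lost once control array 2 or 4 h array 2 was dropped, and unpaired it did not pass (adjusted p 0.525). Sesn2 stood at -0.03, -0.18 and -0.01 (paired adjusted p 0.866, 0.329 and 0.996).

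Among the polo-like kinases, 0 of the 4 relatives measured passed at any time in either fit. Over all genes the paired shares were 6.02%, 1.89% and 0.169% at 4, 12 and 24 h, too few for 4 genes to stand apart by not passing. Plk3, another early response kinase, was higher at 4 h in 3 of 3 pairs, as were 14.7% of genes. Its log2 changes were 0.20, 0.03 and 0.02, and at 4 h limma's adjusted p was 0.11 paired and 0.67 unpaired. It passed in 1 of the 12 paired fits with an array left out, the one that dropped control array 3. Plk1, the mitotic kinase, stood at -0.05, -0.04 and -0.07 and Plk4, which starts centriole duplication, at 0.00, 0.14 and -0.01. That Rbl2, Sesn1 and Plk2 differed from these relatives was not tested.

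Around the members, 9 lists of pathway genes were examined, with the 4 members left out: 105 of 155 listed genes were measured. In the fit without pairing 0 of them passed at 4, 12 or 24 h, with 11, 6 and 4 at an unadjusted p below 0.05. In the paired fit 7 of 105 passed at 4 h, 2 higher and 5 lower. That is 6.67%, close to the 6.02% of all genes. At 12 h 1 passed (0.952%, beside 1.89% of all genes) and at 24 h 0 did, the latter beside 0.169% of all genes. The count of 7 at 4 h became 16 with control array 1 dropped and 1 with control array 2 dropped. It became 15 with 4 h array 1 dropped, 2 with 4 h array 2 or 3 dropped, and 4 with 12 h array 3 or 24 h array 3 dropped. The count of 1 at 12 h became 2 with control array 1 or 4 h array 3 dropped and 8 with control array 3 dropped. It was 0 with control array 2, 4 h array 2, or any 12 h or 24 h array dropped.

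For Rbl2 the lists were its partners and the genes it silences. Of 13 pocket protein, E2F and DREAM complex genes, Lin52, a DREAM subunit, rose in the paired fit at 4 h by 0.37 (adjusted p 0.0484, 0.754 unpaired). Lin52 rose in 3 of 3 pairs, as 14.7% of genes did. Its call held in 2 of 12 paired fits, in which control array 1 or 4 h array 1 was dropped. The median of the list was -0.04 at 4 h, 0.05 at 12 h and 0.01 at 24 h, beside -0.01, -0.00 and -0.01 over all genes. Of 27 proliferation genes that DREAM represses, 23 lay below 0 at 4 h and 22 above 0 at 12 h, with medians of -0.08 and 0.08. Over all genes 52.4% lay below 0 at 4 h and 49.3% above 0 at 12 h, and no test was made of these counts. Of the 27, Ccnb2, cyclin B2, fell by 0.36 on the log2 scale at 4 h in the paired fit (adjusted p 0.0315, 0.779 unpaired), and 0 passed at 12 or 24 h. Ccnb2 missed the paired threshold when control array 2 or 3, 4 h array 2 or 3, 12 h array 3 or 24 h array 3 was dropped. Of 11 G1 cyclins, their kinases and CDK inhibitors, Cdk6, a cyclin D kinase, rose by 0.27 (adjusted p 0.0216 paired, 0.184 unpaired). It missed when control array 2 or 3 or 4 h array 2 or 3 was dropped. The list's median at 4 h was -0.15.

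For Sesn1 and Plk2 the lists were their regulators and the growth pathway. Of 12 p53 target genes 0 passed at any time in either fit, with medians of 0.00, -0.02 and 0.02 at 4, 12 and 24 h. The smallest unadjusted p of the list was that of Trp53inp1 in the paired fit at 12 h. Its log2 changes were -0.13, -0.19 and 0.12 (paired adjusted p 0.216, 0.132 and 0.658). Without pairing the smallest was that of Plk3 at 4 h, described above. Of 14 sestrin, GATOR and mTORC1 genes, Sesn3 and Rragc fell at 4 h in the paired fit. Rragc, a Rag GTPase that brings mTORC1 to the lysosome, fell by 0.27 on the log2 scale (paired SE 0.044, adjusted p 0.0059, 0.418 unpaired) and passed in 12 of 12 paired fits with an array left out. Of 8 FoxO factors and targets, Insr, the insulin receptor, fell by 0.32 (adjusted p 0.017, 0.151 unpaired), a call lost when control array 2 or 4 h array 3 was dropped. At 4 h 5 of the 14 sestrin, GATOR and mTORC1 genes lay above 0 (median -0.04), and 4 of the 8 FoxO genes (median -0.02).

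For Gas1 the lists were the hedgehog and GDNF receptor families, whose proteins it resembles or binds, and other growth arrest genes. Of 10 hedgehog and GDNF receptor genes, Gli2, a transcription factor of the hedgehog pathway, fell by 0.22 at 4 h (adjusted p 0.0346 paired, 0.699 unpaired). That call held in 4 of 12 paired fits, in which control array 1, 4 h array 1, 12 h array 2 or 24 h array 1 was dropped. At 4 h 5 of the 10 genes lay above 0, with a median of -0.00. Of 12 other growth arrest and quiescence genes, Hbp1, a repressor of cell cycle genes, fell by 0.29 at 12 h (adjusted p 0.0362 paired, 0.354 unpaired). It held in 2 of 12 paired fits, in which control array 3 or 4 h array 3 was dropped. The medians of this list were -0.09, -0.01 and -0.09 at the 3 times.

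The arrays as a whole gave the following background. Any 2 of the 12 arrays correlated at 0.877 to 0.980, and the 2 most alike still differed by a median of 0.061 per probe. Id1, Id2 and Id3, direct targets of BMP signalling, rose in the paired fit at 4 h by 0.98, 0.84 and 0.64 (adjusted p 0.00058, 0.0059 and 0.00177) and did not pass unpaired (0.2, 0.302 and 0.274). Each rose in 3 of 3 pairs at 4 h, as did 14.7% of genes. The log2 changes of Id1, Id2 and Id3 were 0.97, 1.27 and 0.79 at 12 h and 1.07, 1.19 and 0.92 at 24 h. All passed in the paired fit at both times, beside 1.89% and 0.169% of all genes, and none passed unpaired. The 24 h call of Id2 held in 8 of 12 paired fits with an array left out. Of the 12 endothelial markers listed 5 were measured, and all 5 had a mean level below 0, that is below the reference RNA. Their mean ran from -1.06 to -1.01 over control arrays, -1.12 to -1.003 at 4 h, -1.25 to -1.06 at 12 h and -1.34 to -1.09 at 24 h. Of these markers 2 of 5 had a log2 change above 0 at 4 h and 0 of 5 at 12 and 24 h, with medians of -0.08, -0.09 and -0.11. The lowest change among them was -0.27 at 4 h, -0.175 at 12 h and -0.38 at 24 h. In the paired fit 1 passed, Flt1, which rose at 4 h by 0.23 (adjusted p 0.0366, 0.346 unpaired) and passed in 3 of 12 fits with an array left out. The mean of 5 fibroblast and mesenchymal markers ran from 0.06 to 0.51 in controls, -0.18 to 0.32 at 4 h, -0.08 to 0.28 at 12 h and -0.02 to 0.39 at 24 h. Of these 5 markers 0 had a log2 change above 0 at 4, 12 or 24 h, with medians of -0.18, -0.15 and -0.13. Over all genes 47.6%, 49.3% and 47.3% lay above 0. In the paired fit 2 of the 5 passed at 4 h, where 6.02% of all genes did. These were Prrx1 and Col3a1 (log2 changes -0.49 and -0.24, adjusted p 0.00754 and 0.0363 paired, 0.195 and 0.214 unpaired), Col3a1 in only 3 of 12 fits with an array left out. At 12 h Prrx1 again lay lower than in controls, by 0.50 (adjusted p 0.0173 paired, 0.533 unpaired), a call lost when control array 1 or 2 or 12 h array 1 or 2 was dropped. Marker means of 5 epithelial genes lay between -1.58 and -1.27 on all arrays and those of 4 smooth muscle genes between -0.91 and -0.65. Of the smooth muscle genes Cnn1 rose by 0.25 at 4 h in the paired fit (adjusted p 0.0135, 0.778 unpaired), a call lost when control array 2 or 4 h array 2 was dropped. The 1 blood marker measured, Ptprc, ran from -0.78 to -0.73 in controls, -1.07 to -0.77 at 4 h, -0.99 to -0.97 at 12 h and -1.63 to -0.94 at 24 h. Its 12 h arrays all lay below the controls, as for 4.14% of genes, and so did its 24 h arrays, as for 2.47%. Its log2 change of -0.42 at 24 h did not pass (adjusted p 0.384 paired, 1 unpaired), nor did that of -0.22 at 12 h (0.454 paired). The part of these markers in the changes of the 4 members was not tested.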

How the data were processed

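RNA of MEC cells (Cy5) and a universal reference RNA (Cy3) was hybridised to 12 two-colour Agilent arrays, scanned on a GenePix 4000B and quantified with GenePix Pro 5.0, per the labels. The deposited log2 ratios (base and sign unstated) had been put through a modified form of local quantile normalization by the authors, per the labels. Columns centre on 0 (medians -0.044 to 0.002). No spot intensities were used here, so no probe is called detected. Precision is limited by having 3 arrays a group.

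Of 11083 probe numbers annotated for the platform, 10576 have 1 symbol and 507 several, which were not used; 10548 were given current symbols through gene identifiers in RefSeq (GRCm38.p6). Probe numbers were placed on a grid of 215 by 105 positions running the other way through the value table, an order recovered from the data, and the probes of a gene were averaged.

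limma 3.58.1 in R 4.3.3 (lmFit, eBayes, two-sided) was fitted to 8267 genes over the 12 arrays, with Benjamini-Hochberg adjustment over all genes and a threshold of 0.05, and was tested on simulated data. A second fit added the replicate number of the titles as a block. The numbers were taken to pair the arrays because all 18 correlations of deviations from group means between same-numbered arrays were above 0.1 (0.443 to 0.695), while those between different numbers ran from -0.564 to 0.069. Deviations from a group mean cancel within the group, so positive same-number values push the different-number ones down. The latter are therefore no separate support. All 3 times were set against the same control arrays. Alternatives were quantile normalization, median centring, leaving out each array, the deposited order, a filter on low values and the methods' t-test.

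The 4 members and the lists were chosen with earlier results of these data known. Genes named from a list are those with an adjusted p below 0.05 in either fit, at most 6 a list, or else the one with the smallest p; the 3 genes most like each member were named too, and the family relatives were added after their values were seen.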

Additional observations from a re-analysis of the deposited data

Results flagged for a closer look

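Among the genes described individually in this report, and not over all 8267, 3 outside the 4 members had opposite directions at different times. All 3 pairs moved one way at one time and all 3 the other way at another. Trp53inp1 had a log2 change of -0.13 at 4 h and -0.19 at 12 h but 0.12 at 24 h, differences of 0.25 and 0.31 (adjusted p for the change between the times 0.0383 and 0.1 paired, 0.965 and 1 unpaired). Gli2 stood at -0.22 at 4 h and -0.14 at 12 h and at 0.045 at 24 h, differences of 0.26 and 0.19 (0.0194 and 0.301 paired, 0.615 and 1 unpaired). Flt1 stood at 0.23 at 4 h and -0.08 at 12 h, a difference of -0.31 (0.0384 paired, 0.411 unpaired). In limma's paired fit the differences of Trp53inp1 and Gli2 between 4 and 24 h and of Flt1 between 4 and 12 h passed, beside 4.05% and 1.29% of all genes in those contrasts, and without pairing none of the 5 did. The 3 genes were picked for opposite signs on these same arrays, which favours a pass. Nothing is therefore read from these calls or from the shares beside them. Groups of 3 arrays are too small for a test of single outlying arrays.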

How the results depend on the processing

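The log2 changes of the 4 genes at 4, 12 and 24 h moved by less than 1 SD between replicates under quantile normalization, median centring, the replicate block and each array left out in turn, and each gene has 1 probe, so single probes give the same values. With an array left out of the paired fit the Plk2 change at 24 h changed sign (-0.11 to 0.01), while the other 11 changes kept theirs, paired and unpaired. Without pairing and with an array left out, Gas1 ran from -0.81 to -0.31 at 4 h, -0.86 to -0.36 at 12 h and -0.81 to -0.30 at 24 h. Rbl2 ran from -0.78 to -0.57, -0.44 to -0.21 and -0.26 to -0.03, Sesn1 from -0.75 to -0.49, -0.43 to -0.25 and -0.24 to -0.09, and Plk2 from 0.31 to 0.40, 0.02 to 0.12 and -0.13 to -0.02. Moves of over 1.5 times came for Gas1 with control array 1 dropped (all 3 times), 12 h array 2 (12 h) or 24 h array 2 (24 h), for Rbl2 with 12 h array 2 (12 h), or control array 2 or 3 or 24 h array 2 (24 h), and for Sesn1 at 24 h with the last 3 of these. For Plk2 they came with control array 1 or 3 or 12 h array 2 dropped (12 h), and control array 1 or 3 or any 24 h array (24 h). The names matter most: read in the deposited order, Gas1 stood at 0.014, 0.043 and -0.079 at 4, 12 and 24 h, Rbl2 at -0.32 at 4 h, Sesn1 at 0.145 and -0.037 and Plk2 at -0.057 and -0.061 at 4 and 12 h, values of other probes.

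Without pairing limma called 14 genes at 4 h, 0 at 12 h, 0 at 24 h and 4 by the F test. With the replicate block it called 498, 156, 14 and 412, and after quantile normalization 27, 1, 0 and 12. Restricted to genes above the array median the F test called 2. The methods' t-test gave 474, 297 and 175 at 4, 12 and 24 h unadjusted and 0, 1 and 0 after Benjamini-Hochberg. With an array left out the counts ran from 3 to 51 unpaired and 208 to 642 paired at 4 h, 0 to 1 and 22 to 288 at 12 h, 0 and 2 to 16 at 24 h, and 0 to 8 and 166 to 527 by the F test. At 4 h and unpaired, dropping control array 1 or 2 or 4 h array 3 left 3 genes, dropping 4 h array 2 left 4 and 24 h array 2 left 9, and dropping control array 3 or 4 h array 1 gave 21 and 51. With every array of replicate number 1, 2 or 3 dropped, the blocked counts were 364, 20 and 139 at 4 h, 15, 3 and 92 at 12 h, 3, 0 and 0 at 24 h, and 132, 2 and 62 by the F test. Of the listed genes 0 passed unpaired and 7, 1 and 0 with the block at 4, 12 and 24 h (1 to 16, 0 to 8 and 0 with an array left out). These alternatives with the block and an array left out were added after seeing the data. The cause of these shifts was not tested.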
